A study of Mus musculus with 6 samples.

Results

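The matrix proteases, their inhibitors and the lysyl oxidases were taken as 56 of the 55291 gene symbols of the count table, by symbol alone: 23 matrix metalloproteinases (Mmp), 19 Adamts proteases, 5 Adamtsl genes, the 4 tissue inhibitors of metalloproteinases (Timp) and the 5 lysyl oxidases (Lox and Loxl1 to Loxl4). They were measured by bulk RNA-seq in subcutaneous tumours of the mouse glioma cell line CT2A. There were 3 libraries with the genotype Siglece KO and 3 with the genotype wild type (WT), Siglece encoding an inhibitory receptor of myeloid cells that binds sialic acid. All 6 libraries were from tumours of the same cell line, and no treatment is named for any group. Smart-seq2 libraries were made from 5000 to 20000 cells, which the protocol calls CT2A cells. One label gives brain as the source of all samples, whereas the tissue is given as a subcutaneous tumour. The labels give no strain or age of the mice and do not say whether the host or the implanted cells carried the knockout. Nor do they tie libraries to separate animals, so the p-values reflect the spread among these 6 libraries, and that spread may be technical.

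Matrix metalloproteinases are zinc enzymes that are made as inactive precursors and cut collagens, gelatin, elastin and other matrix proteins, either in solution or, for the membrane-type enzymes, at the cell surface. ADAMTS proteases are secreted relatives with thrombospondin repeats that trim procollagens and cleave proteoglycans, ADAMTS-like proteins have the repeats without the protease domain, and TIMPs bind the active site of the proteases. Lysyl oxidases act in the other direction and cross-link collagen and elastin. In tumours much of this RNA is known to come from fibroblasts, macrophages, neutrophils and endothelial cells as well as from the tumour cells.

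Library totals ran from 24369359 to 40574093 counts, and levels are given as CPM, counts scaled to a common library size after edgeR's TMM adjustment. Values of single libraries are listed in the order of replicates 1, 2 and 3, which are names and carry no order. The knockout target Siglece had 0, 8 and 0 counts in the KO libraries and 74, 99 and 64 in the WT libraries. Marker genes of several cell types differed between the groups. A list of 8 glioma and neural markers, among them Sox2, Olig2 and Nes, summed to 69.5, 575 and 48.9 CPM in the KO libraries and 855, 806 and 834 CPM in the WT libraries. KO replicate 2 lay nearer to WT than the other KO libraries, and the astroglial marker Gfap was at 0 in KO replicate 3. Of the 8 markers 2 were called lower, Slc1a3 and Cspg5. Sox2, Olig2 and Nes were not called, though all their KO libraries lay below WT. Summed fibroblast markers were at 2054, 645 and 2133 CPM in the KO libraries and 262, 155 and 199 CPM in the WT libraries. Summed macrophage markers were at 1945 to 6413 CPM in the KO group against 799.6 to 1385 in the WT group, and endothelial markers at 260.3 to 826 CPM in the KO group against 54.5 to 80.1 in the WT group. Pericyte and smooth muscle markers (4 of 6 called higher) summed to 233 to 727 CPM in the KO group against 114 to 119 in the WT group. T cell markers (5 of 6 called higher) summed to 147 to 494 CPM in the KO group against 46.2 to 82.7 in the WT group, and mast cell markers (3 of 6) to 228 to 852 CPM in the KO group against 107 to 134 in the WT group. Skeletal muscle markers (4 of 5 called higher) were at 815, 258 and 1966 CPM in the KO libraries and 184, 89.5 and 76.4 CPM in the WT libraries. The 7 neutrophil markers summed to 148, 42.8 and 231 CPM in the KO libraries and 12.5, 14.9 and 14.0 CPM in the WT libraries. Of them 1 was called higher, Csf3r, which made up most of their sum in KO replicates 1 and 2 and in WT. S100a9, Ly6g, Cxcr2 and Mpo did not pass the count filter and were not tested. Keratinocyte markers were low, at no more than 5.38 CPM in sum. Adipocyte markers summed to 0.884, 4.79 and 40.6 CPM in the KO libraries and 3.50, 1.85 and 1.58 CPM in the WT libraries. In each list 0 of 5 were called, but Pck1, Krt5, Krt14, Krt1 and Dsg3 were not tested. In bulk tissue, more or fewer cells of a type and more or less RNA per cell cannot be told apart, and the part of these differences in the results below was not tested.

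Collagen-degrading MMPs, the membrane collagenase Mmp14, Adamts15, Timp2 and lysyl oxidases were higher in KO tumours. Of the 46 members with enough counts to be tested, 19 were higher in KO and 0 were lower (edgeR's quasi-likelihood test, Benjamini-Hochberg adjusted p under 0.05). DESeq2 called 4 members lower, beside 1244 of all genes, and limma-voom called 0 members lower. With edgeR, 4 members with a negative fold change had an unadjusted p under 0.05. In either direction such a p was seen in 29 of the 46 tested members and in 5919 of all 18621 genes tested. The 19 were 11 of 18 tested MMP genes, 3 of 15 tested ADAMTS genes, 1 of 4 tested ADAMTS-like genes, 1 of 4 TIMPs and 3 of 5 lysyl oxidases. With edgeR, over all 18621 genes tested, 11.2% were called higher and 0.226% lower, against 41.3% and 0% of the tested members. The median log2 fold change (KO minus WT) was 1.21 over the tested members and -0.05 over all genes tested. In each of the 19 genes the lowest KO library lay above the highest WT library. Such a separation was seen in 25 tested members, and the reverse, with KO below WT, in 4. It was seen in 24.6% and 19.5% of all tested genes. The members took 0.633%, 0.346% and 0.652% of all counts in the KO libraries and 0.177%, 0.193% and 0.214% in the WT libraries. KO replicate 2 was the lowest KO library in 18 of the 19 called genes. The share of all called genes with this order was not counted.

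The number of calls differed with which library was left out. With edgeR 0 members were called when KO replicate 1 or any single WT library was left out. In these fits, with the KO library first, 23, 27, 27 and 26 members had an unadjusted p under 0.05. DESeq2 called 20, 22, 20 and 20 members higher and 0, 2, 1 and 0 lower, and limma-voom called 0. Over all genes, in the same order, 3461, 4931, 4282 and 4246 had an unadjusted edgeR p under 0.05. DESeq2 called 1998, 2821, 2309 and 2292 of all genes higher and 86, 278, 260 and 211 lower, and limma-voom called 0. Without KO replicate 2, 23 members were called higher and 8 lower, and the 19 genes were among them. In that fit DESeq2 called 4709 of all genes higher and 4642 lower, against 23 and 10 of the members. With limma-voom the counts were 4451 and 3515 of all genes, against 23 and 8 of the members. The lower calls given below for single genes without KO replicate 2 are to be read beside these counts. Without KO replicate 3, 14 of the 19 were called, and Mmp13, Mmp19, Mmp25, Adamtsl1 and Timp2 missed the threshold. The log2 fold change of each of the 19 was above 0 in all 15 alternative fits. Besides the values given with single genes below, leaving out KO replicate 1 brought the log2 fold change of Mmp13 to 1.91, of Mmp25 to 1.59 and of Adamts2 to 1.92. Leaving out WT replicate 1 brought that of Mmp13 to 3.17. Mmp15, Mmp16, Mmp28, Adamts5, Adamts9, Adamts20 and the other members described below that did not pass and were not among the most abundant of their group were chosen after their values were seen.

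**Figure D1:**
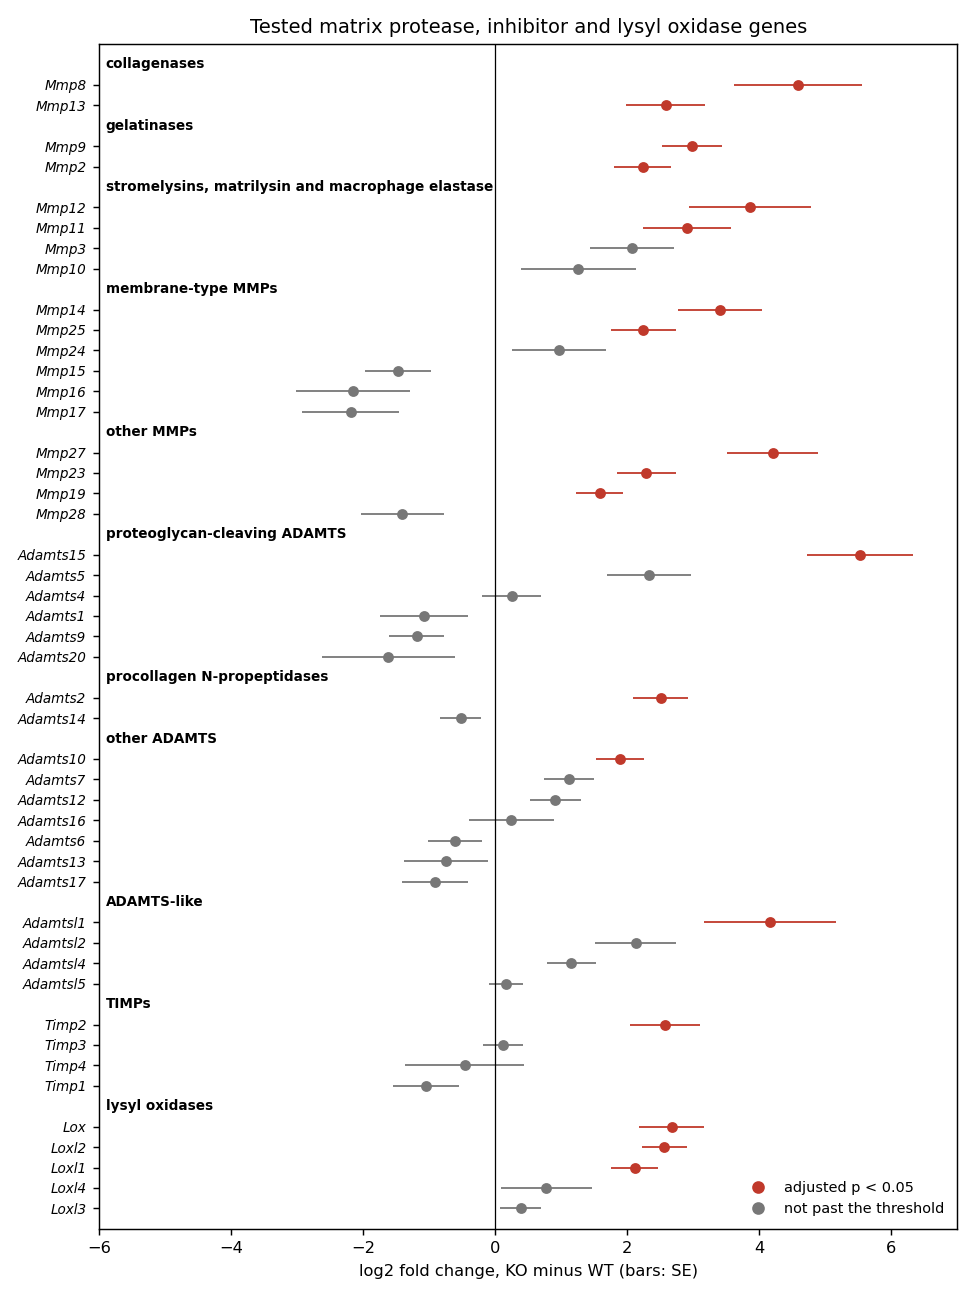
Log2 fold change (KO minus WT, x axis) of the 46 tested members, grouped by role, with bars of 1 SE; red points passed an adjusted p of 0.05. The 19 red points all lie to the right of 0, between 1.58 and 5.52, while 13 grey points lie to the left.

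Of the collagenases, which cut intact fibrillar collagen, both tested genes were higher in KO. Mmp13 (collagenase 3) was at 696, 227 and 316 CPM in the KO libraries and 117, 33.5 and 57.0 CPM in the WT libraries. Its log2 fold change was 2.58 (SE 0.60, adjusted p = 0.0352), and WT replicate 1 was the highest of the WT libraries. Mmp8, the collagenase stored in neutrophil granules, was at 3.47, 3.02 and 21.9 CPM in the KO libraries and 0.246, 0.655 and 0.268 CPM in the WT libraries, a log2 fold change of 4.59 (SE 0.97, adjusted p = 0.0284). KO replicate 3 carried most of its KO mean, and the log2 fold change was 3.03 without that library. In both genes every KO library lay above every WT library. Neutrophil markers moved unevenly beside Mmp8. Of those tested, which were Csf3r, S100a8 and Retnlg, only Csf3r was called higher. S100a8 was at 0.238, 0.968 and 36.1 CPM in the KO libraries and 0.902, 0.370 and 0.327 CPM in the WT libraries. Ly6g was at 0 in every library but WT replicate 3, where it had 1 count. The mouse counterparts of human collagenase 1 were at the detection limit, with 1 count of Mmp1a and 15 of Mmp1b over all 6 libraries, and were not tested.

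Mmp13 and Mmp8 belong to a cluster of 10 MMP genes on chromosome 9, which ran from 7272514 to 7699585 (mm10, as for all positions given here) in the order Mmp13, Mmp12, Mmp1b, Mmp3, Mmp1a, Mmp10, Mmp8, Mmp27, Mmp20 and Mmp7. Expression varied from gene to gene along it. Mmp13, Mmp12, Mmp8 and Mmp27 were called higher, Mmp3 and Mmp10 were tested and not called, and Mmp1a, Mmp1b, Mmp20 and Mmp7 had at most 5 counts in any library. RefSeq promoter windows of 300 bases (GRCm38.p6, 250 before and 50 after a start site) were at hand for 37 of the 56 members and for all 10 cluster genes. They were searched for TGANTCA, a loose form of the AP-1 site, the element bound by Fos and Jun proteins. N stands for any base, and the pattern reads the same on both strands. Mmp20 matched only as TGAATCA, and the other genes as TGAGTCA or TGACTCA. It was found in 8 of the 10 cluster genes, in 0 of the 27 other members with a window, and in 8.97% of all 27025 genes with a window (7.81% of 32851 windows). The 8 stretches are printed to show the site and its flanks in genes that were expressed at very different levels. Each runs 5′ to 3′ on the strand of its gene, with the matched site in capitals and 15 bases on either side.
Mmp13: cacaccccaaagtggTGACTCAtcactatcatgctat
Mmp12: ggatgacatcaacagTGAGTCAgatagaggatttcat
Mmp3: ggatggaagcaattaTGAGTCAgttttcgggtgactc
Mmp10: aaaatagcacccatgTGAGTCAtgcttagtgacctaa
Mmp1a: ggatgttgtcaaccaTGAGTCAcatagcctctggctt
Mmp1b: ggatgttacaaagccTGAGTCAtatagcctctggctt
Mmp7: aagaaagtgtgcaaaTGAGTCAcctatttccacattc
Mmp20: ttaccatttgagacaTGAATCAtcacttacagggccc
The first base of the site lay 35 bases before the start site in Mmp13, 44 in Mmp12, 46 in Mmp3, 63 in Mmp10, 73 in Mmp1a, 93 in Mmp1b, 63 in Mmp7 and 95 in Mmp20. The stretch of Mmp13 lies at chr9:7272464-7272500 and that of Mmp12 at chr9:7347315-7347351, both on the plus strand. Mmp12 and Mmp7 had 2 windows each, and not both held the site. The start site used for Mmp12 lies inside the counted gene, which begins at 7344381. The windows of Mmp8 and Mmp27, both called higher in KO, did not hold these letters, and those of Mmp1a, Mmp1b, Mmp7 and Mmp20, which were barely counted, did. A match describes the sequence and is not evidence of binding.

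**Figure D2:**
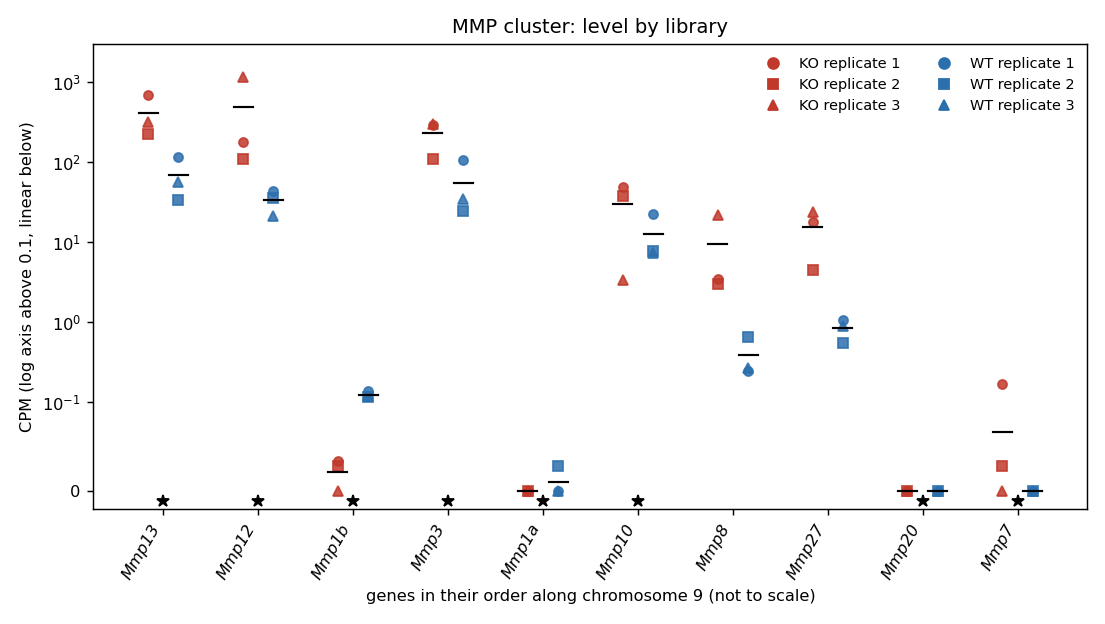
CPM in each library (points, y axis, logarithmic above 0.1 and linear below) of the 10 MMP genes of the chromosome 9 cluster, in genome order, with group means as bars and a star under genes whose promoter window holds TGANTCA. Mmp13, Mmp12, Mmp8 and Mmp27 have every KO point above every WT point, and starred genes stand both at the top and at the bottom of the range.

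Within the same cluster, the stromelysin Mmp3, which cleaves many matrix proteins and activates other MMPs, was at 289.9, 110.0 and 299 CPM in the KO libraries and 107, 24.8 and 34.2 CPM in the WT libraries. The KO libraries all lay above WT, but KO replicate 2 and WT replicate 1 nearly met and the gene did not pass (log2 fold change 2.08, SE 0.64, adjusted p = 0.0751). Mmp3 passed with DESeq2, with no low-count filter and without KO replicate 2, and its log2 fold change was 2.96 without WT replicate 1. Mmp10 (stromelysin 2) was at 49.0, 37.9 and 3.34 CPM in the KO libraries and 22.8, 7.63 and 7.35 CPM in the WT libraries, with KO replicate 3 below every WT library, and did not pass (log2 fold change 1.26, SE 0.87, adjusted p = 0.329).

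Mmp12, the macrophage elastase, rose from 33.4 ± 11.5 CPM in WT to 484 ± 591 CPM in KO (SD, n = 3). By library it was at 179, 108 and 1166 CPM in the KO libraries and 44.0, 35.1 and 21.2 CPM in the WT libraries. KO replicate 3 stood far above the other KO libraries: the log2 fold change came to 3.86 (SE 0.93, adjusted p = 0.0380) with all libraries and 2.07 without it. Macrophage markers summed to 5811, 1945 and 6413 CPM in the KO libraries. Of the single markers, chosen after their values were seen, the mannose receptor Mrc1 was at 191, 70.3 and 644 CPM there and Cd68 at 489, 151 and 774 CPM, both highest in KO replicate 3. C1qa and C1qb were highest there too, C1qb by a small margin. The other markers of the list were highest in KO replicate 1: Csf1r (801, 242 and 562 CPM), Adgre1 (360, 110 and 186) and Fcgr1 (202, 74.2 and 91.4). The part of macrophage markers in the Mmp12 result was not tested. Mmp11, a stromelysin that furin activates inside the cell and that fibroblasts of tumours are known to make, was at 218, 45.5 and 44.6 CPM in the KO libraries and 18.1, 11.8 and 11.2 CPM in the WT libraries. Here KO replicate 1 stood highest, and the log2 fold change of 2.91 (SE 0.67, adjusted p = 0.0337) was 1.66 without it. With limma-voom neither Mmp12 nor Mmp11 nor Mmp8 passed.

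Both gelatinases, which degrade denatured collagen and basement membrane, were higher in KO. Mmp2, on chromosome 8 at 92827291 to 92853420, was the more abundant per length of exon, at 239, 84.5 and 176 in the KO libraries and 36.3, 30.5 and 39.5 in the WT libraries (CPM per kilobase). On the CPM scale its log2 fold change was 2.24 (SE 0.43, adjusted p = 0.0250). Mmp9, on chromosome 2 at 164940780 to 164955850, a gelatinase of neutrophils and macrophages, was at 35.3, 29.96 and 58.8 CPM in the KO libraries and 7.27, 5.64 and 2.83 CPM in the WT libraries, with a log2 fold change of 2.98 (SE 0.45, adjusted p = 0.0246). Neither gene's groups overlapped, and both passed in all 8 alternative fits that used the 6 libraries.

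The membrane-type MMPs split. Mmp14 (MT1-MMP, on chromosome 14 at 54431612 to 54445364), which cuts collagen at the cell surface and activates the precursor of Mmp2, was at 1079, 401 and 2293 CPM in the KO libraries and 125, 105 and 127 CPM in the WT libraries. Its log2 fold change was 3.40 (SE 0.64, adjusted p = 0.0246) with all libraries and 2.61 without KO replicate 3, its highest library. Per length, its mean over the 6 libraries was the highest of all MMP genes (115 CPM per kilobase). Mmp2 (101) and Mmp13 (90.1) came next, and the KO libraries of these genes overlapped. Only in KO replicate 3 did Mmp14 lie above both (385, against 176 for Mmp2 and 118 for Mmp13). In KO replicates 1 and 2 Mmp14 (181 and 67.3) lay below Mmp2 (239 and 84.5) and Mmp13 (260 and 84.8). Its WT mean (20.0) was also below those of Mmp2 (35.4) and Mmp13 (25.8). Mmp25, a leukocyte enzyme held by a lipid anchor, was also higher, at 19.0 ± 11.5 CPM across the KO group against 4.01 ± 0.380 CPM across WT (SD, n = 3; log2 fold change 2.24, SE 0.49, adjusted p = 0.0297). With limma-voom Mmp25 did not pass.

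The other membrane-type genes did not follow Mmp14. Mmp17, which like Mmp25 has a lipid anchor, was at 11.1, 57.0 and 7.53 CPM in the KO libraries and 96.6, 96.8 and 153 CPM in the WT libraries, and Mmp16 was at 0.578, 5.95 and 0.748 CPM in the KO libraries and 10.8, 8.63 and 13.4 CPM in the WT libraries. Mmp15 averaged 23.5 ± 14.98 CPM across the KO group against 65.2 ± 23.2 CPM across WT (SD, n = 3). In these genes every KO library lay below every WT library, but none passed (adjusted p = 0.0943 for Mmp17, 0.137 for Mmp16 and 0.0955 for Mmp15). KO replicate 2 was the KO library closest to WT in each. All 3 were called lower with DESeq2, with no low-count filter and without KO replicate 2. In the last fit the log2 fold changes were -3.64, -4.06 and -2.12. Of all genes, DESeq2 called 1244 lower and the fit with no low-count filter 476. Mmp24, an enzyme known from neurons, had overlapping groups (log2 fold change 0.96, SE 0.71, adjusted p = 0.364).

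**Figure D3:**
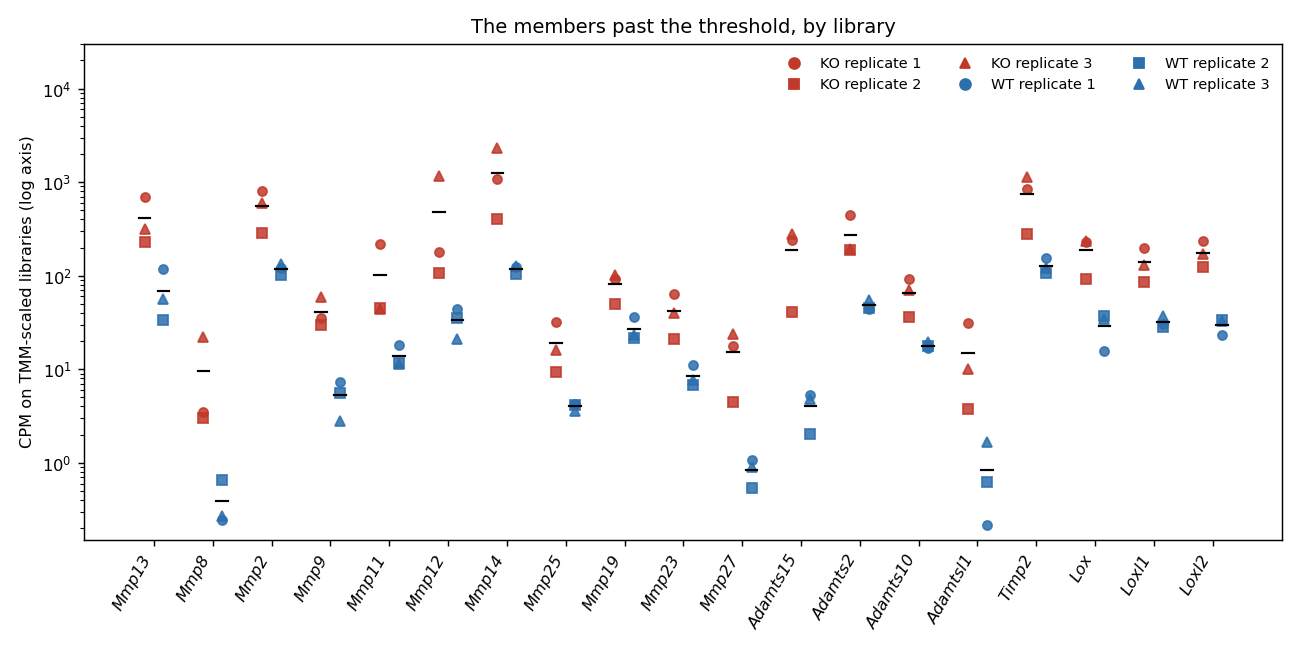
CPM (log axis) of the 19 members that passed the threshold in each of the 6 libraries, KO in red and WT in blue, with group means as bars. For every gene the KO points lie above the WT points, and KO replicate 2 (red squares) is the lowest KO point in 18 of them.

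Of the remaining MMP genes, 3 of 4 tested were higher in KO. Mmp27, a little-studied relative of the stromelysins, was at 17.7, 4.5 and 24.03 CPM in the KO libraries and 1.07, 0.541 and 0.893 CPM in the WT libraries (log2 fold change 4.20, SE 0.69, adjusted p = 0.0246). Mmp23, an enzyme with an amino-terminal membrane anchor, averaged 41.8 ± 21.7 CPM across the KO group against 8.53 ± 2.32 CPM across WT (SD, n = 3; log2 fold change 2.29, SE 0.45, adjusted p = 0.0254). Mmp19 averaged 81.0 ± 27.5 CPM across the KO group against 27.1 ± 7.88 CPM across WT (SD, n = 3), the smallest change of the called members (log2 fold change 1.58, SE 0.36, adjusted p = 0.0326); 28.3% of its exon bases are shared with genes on the opposite strand, whose reads this library type cannot separate. Mmp28 (epilysin) was at 3.10, 12.3 and 2.89 CPM in the KO libraries and 10, 18.3 and 20.4 CPM in the WT libraries and did not pass (log2 fold change -1.41, SE 0.63, adjusted p = 0.166). KO replicate 2 lay inside its WT range, and without that library Mmp28 was called lower (-2.45).

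Among the ADAMTS proteases known to cleave aggrecan or versican, Adamts15 had the greatest log2 fold change of any member. It lies on chromosome 9 at 30899155 to 30922452 and was at 238, 41.3 and 279.7 CPM in the KO libraries and 5.27, 2.05 and 4.85 CPM in the WT libraries. Its mean was 45.9 times as high in KO as in WT, a log2 fold change of 5.52 (SE 0.80, adjusted p = 0.0246). KO replicate 2 was the lowest KO library and still lay well above every WT library. The log2 fold change lay between 5.07 and 6.22 in the alternative fits. Adamts5, the main aggrecanase of mouse cartilage, was at 27.3, 11.4 and 76.8 CPM in the KO libraries and 7.05, 8.95 and 6.93 CPM in the WT libraries and missed the threshold (log2 fold change 2.33, SE 0.64, adjusted p = 0.0546). It passed with DESeq2, with no low-count filter and without KO replicate 2. Without KO replicate 3, its highest library, the log2 fold change was 1.32.

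Adamts1, Adamts9 and Adamts20 had the opposite sign without passing. Adamts1 had the highest level per length of this group and was at 49.6, 152 and 20.9 CPM in the KO libraries and 98.9, 211 and 161 CPM in the WT libraries (log2 fold change -1.08, SE 0.67, adjusted p = 0.282). Adamts20 was at 3.03, 22.7 and 0.748 CPM in the KO libraries and 18.2, 34.0 and 29.5 CPM in the WT libraries (log2 fold change -1.62, SE 1.01, adjusted p = 0.285), so KO replicate 2 again sat within the WT range and KO replicates 1 and 3 below it. Adamts9 averaged 24.4 ± 12.5 CPM across the KO group against 55.7 ± 17.2 CPM across WT (SD, n = 3; log2 fold change -1.19, SE 0.42, adjusted p = 0.106). Without KO replicate 2 these 3 genes were called lower, at log2 fold changes of -2.17 for Adamts1, -1.70 for Adamts9 and -3.83 for Adamts20. Adamts4 had overlapping groups and its sign changed between fits (log2 fold change 0.25, SE 0.45, adjusted p = 0.718). The summed level of the 7 genes was 46.0 ± 3.23 CPM per kilobase in KO and 44.1 ± 14.3 in WT (SD, n = 3), and the groups overlapped.

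The procollagen N-propeptidases remove the amino-terminal propeptide of fibrillar collagens. Adamts2 was at 442, 186 and 191 CPM in the KO libraries and 44.4, 44.6 and 55.2 CPM in the WT libraries, a log2 fold change of 2.51 (SE 0.42, adjusted p = 0.0246). Adamts14, with the same known activity, was at 53.8, 57.2 and 29.1 CPM in the KO libraries and 65.2, 67.4 and 69.2 CPM in the WT libraries. All KO libraries of Adamts14 were below WT by a small margin, and it passed in none of the 15 alternative fits (log2 fold change -0.53, SE 0.30, adjusted p = 0.255). Adamts3 had at most 14 counts in a library and was not tested. Of the other ADAMTS genes 1 of 7 tested was higher, Adamts10, which is known to bind fibrillin microfibrils, at 66.1 ± 27.7 CPM across the KO group against 17.9 ± 1.35 CPM across WT (SD, n = 3; log2 fold change 1.89, SE 0.36, adjusted p = 0.0250). Adamts7 and Adamts12, which cleave cartilage oligomeric matrix protein, had KO libraries above WT and did not pass (log2 fold change 1.12, SE 0.38, adjusted p = 0.0963, and log2 fold change 0.91, SE 0.38, adjusted p = 0.151). Adamts6, Adamts13, Adamts16 and Adamts17 had overlapping groups, with log2 fold changes from -0.91 to 0.24.

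Of the ADAMTS-like genes, Adamtsl1 was higher in KO, at 31.1, 3.79 and 10.2 CPM in the KO libraries and 0.219, 0.627 and 1.67 CPM in the WT libraries (log2 fold change 4.16, SE 0.99, adjusted p = 0.0372). The call was lost without composition scaling and with limma-voom. The log2 fold change was 2.995 without KO replicate 1 and 5.11 without WT replicate 3. Adamtsl2 and Adamtsl4, both linked to fibrillin microfibrils, had KO libraries above WT and did not pass (log2 fold change 2.13, SE 0.61, adjusted p = 0.0628, and log2 fold change 1.15, SE 0.37, adjusted p = 0.0852). Both passed with DESeq2 and without KO replicate 2, and Adamtsl2 also with no low-count filter. Adamtsl5 had the highest level per length of these genes and was nearly level between the groups, at 31.3 ± 1.95 CPM across the KO group against 28.0 ± 5.19 CPM across WT (SD, n = 3).

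Among the inhibitors, Timp2 was higher in KO, and in KO replicates 1 and 3 it took the place of Timp1 as the most abundant TIMP per length. Timp2, on chromosome 11 at 118301069 to 118355740, inhibits MMPs and also takes part in the activation of the Mmp2 precursor by Mmp14. It was at 842, 280.2 and 1136 CPM in the KO libraries and 153, 106 and 121 CPM in the WT libraries and was higher in KO (log2 fold change 2.57, SE 0.53, adjusted p = 0.0276). Timp1, an X-linked inhibitor on chromosome X at 20870166 to 20874735, was at 52.4, 131 and 122.7 CPM in the KO libraries and 350.3, 159.5 and 122.8 CPM in the WT libraries and did not pass (log2 fold change -1.05, SE 0.50, adjusted p = 0.188). KO replicate 2 lay inside the WT range of Timp1. WT replicate 1 held its highest level, and without it the log2 fold change was -0.49. Timp3, the inhibitor that binds to the matrix, averaged 138 ± 36.6 CPM across the KO group against 127 ± 24.5 CPM across WT (SD, n = 3); its sign changed between fits, and 21.3% of its exon bases are shared with Syn3 on the opposite strand. Timp4 was at or below 2.05 CPM in every library.

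On the per-length scale, where genes can be compared, Timp1 made up 88.3, 80.5 and 73.7% of the summed TIMP level in the WT libraries and 20.4, 62.8 and 30.6% in the KO libraries. Timp2 made up 8.81, 12.2 and 16.5% in WT and 74.8, 30.7 and 64.5% in KO. The Timp1 share was thus below the WT range in each KO library, and the Timp2 share above it, with KO replicate 2 nearest to WT. The summed TIMP level itself overlapped between the groups (289, 234 and 452 CPM per kilobase in the KO libraries and 446, 223 and 188 in the WT libraries). The summed level of all 23 MMP genes was 1059.5, 409 and 1122 CPM per kilobase in the KO libraries and 237, 130.5 and 172 in the WT libraries. The ratio of summed MMP to summed TIMP level was 3.67, 1.75 and 2.48 in the KO libraries and 0.530, 0.585 and 0.917 in the WT libraries. These sums were made over the members and carry no test.

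**Figure D4:**
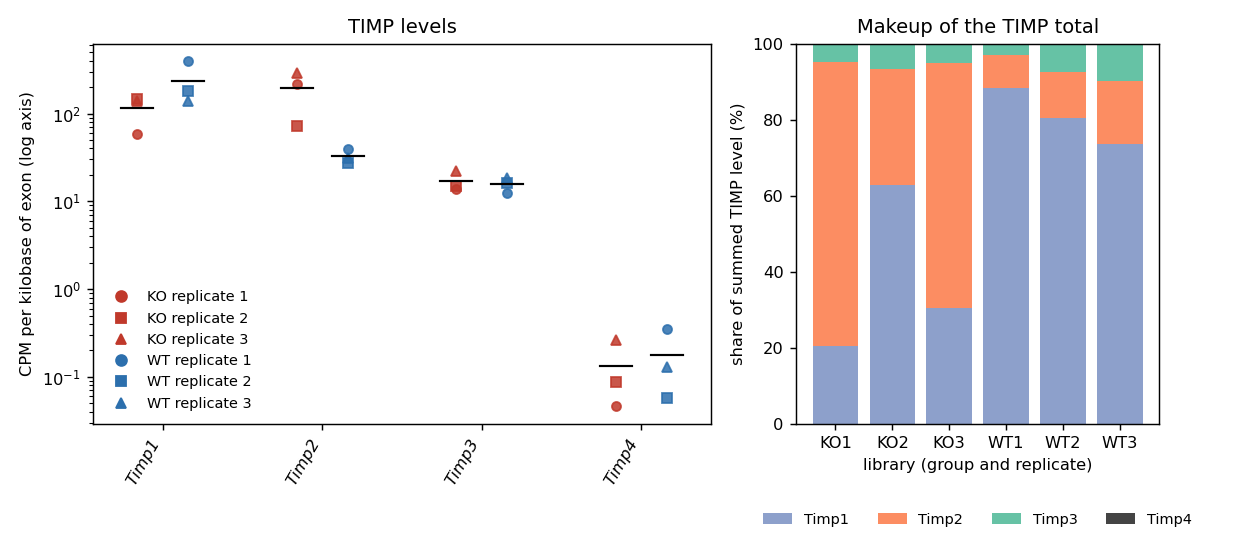
Left, level of each TIMP (CPM per kilobase of exon, log axis) in each library, with group means as bars; right, share of each TIMP in the summed TIMP level of each library. Timp1 is the largest part in the 3 WT libraries and KO replicate 2, and Timp2 in KO replicates 1 and 3.

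Of the 5 lysyl oxidases 3 were higher in KO, and the groups of these genes were well apart. Lox, the founding member of the family, was at 232, 92.0 and 235 CPM in the KO libraries and 15.8, 37.2 and 34.5 CPM in the WT libraries, with a log2 fold change of 2.67 (SE 0.49, adjusted p = 0.0246). Loxl1, which is known to be needed for elastic fibre upkeep, was at 199, 86.6 and 130.1 CPM in the KO libraries and 30.6, 28.4 and 37.2 CPM in the WT libraries (log2 fold change 2.11, SE 0.36, adjusted p = 0.0246). Loxl2, on chromosome 14 at 69609068 to 69695834, cross-links basement membrane collagen and was at 236, 124 and 169 CPM in the KO libraries and 23.5, 33.2 and 32.9 CPM in the WT libraries (log2 fold change 2.56, SE 0.34, adjusted p = 0.0246). Their log2 fold changes stayed between 1.697 and 2.98 in the alternative fits. Loxl3 was at 130.4, 112 and 64.9 CPM in the KO libraries and 71.9, 74.4 and 89.1 CPM in the WT libraries, with overlapping groups (log2 fold change 0.38, SE 0.31, adjusted p = 0.409), although its WT level per length (17.1 CPM per kilobase) exceeded those of Lox (6.11), Loxl1 (9.73) and Loxl2 (5.53). Loxl4 was low and also overlapped, at 3.76 ± 1.97 CPM across the KO group against 2.20 ± 1.34 CPM across WT (SD, n = 3). A share of 11.6% of the exon bases of Loxl3 is covered by Htra2 on the other strand.

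Other genes of matrix turnover, 62 in all, were examined in the same fit. Of 56 tested, 19 were higher and 0 lower (33.9% and 0%, against 11.2% and 0.226% of all genes), with a median log2 fold change of 0.94. The list was chosen with earlier results of these data known, so no test is drawn from these shares. Of 10 genes that activate, clear or restrain the proteases, 4 were higher: the convertase Pcsk6 (log2 fold change 3.93, SE 0.64), the clearance receptor Lrp1 (log2 fold change 2.45, SE 0.47), the membrane-bound MMP inhibitor Reck (log2 fold change 2.37, SE 0.56) and the convertase Pcsk5 (log2 fold change 2.50, SE 0.65). Pcsk5 and Reck missed the threshold with limma-voom, without composition scaling and without KO replicate 3, and Pcsk5 also under RLE scaling. Of 15 other tested matrix and shedding proteases 8 were higher, among them Ctsk, a lysosomal protease that degrades collagen, at 363 ± 154 CPM across the KO group against 42.9 ± 19.4 CPM across WT (SD, n = 3). Adam12, Adam8 and Adam19, membrane-anchored proteases, rose by 3.23 (SE 0.48), 3.27 (SE 0.59) and 2.19 (SE 0.39) on the log2 scale. With edgeR 0 of these 56 genes passed without KO replicate 1 or any 1 WT library, while DESeq2 called 18 without KO replicate 1 and 20 to 21 without a WT library, and limma-voom 0 in each of these fits and without KO replicate 3. Without KO replicate 2, edgeR called 31 higher and 8 lower. DESeq2 called 34 of them higher and 9 lower in that fit, against 4709 and 4642 of all genes.

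Of 21 genes of collagen and elastin assembly 7 were higher, including elastin itself and proteins of elastic fibres. Eln averaged 66.6 ± 30.8 CPM across the KO group against 6.35 ± 3.69 CPM across WT (SD, n = 3), and Mfap4, Mfap5 and Fbln5 rose by 4.35 (SE 0.67), 3.07 (SE 0.65) and 1.696 (SE 0.32) on the log2 scale. Mfap5, which is also in the fibroblast marker list, missed the threshold with limma-voom and without KO replicate 3. Of 10 tested proteoglycan and glycoprotein substrates 0 passed with edgeR, and 3 had an unadjusted p under 0.05, against 5919 of all 18621 genes tested. Vcan (versican) averaged 35.6 ± 8.58 CPM across the KO group against 18.3 ± 5.32 CPM across WT (SD, n = 3), Tnc (tenascin C) had a log2 fold change of 1.28 (SE 0.43, adjusted p = 0.0943) and Fn1 (fibronectin) one of 0.90 (SE 0.36, adjusted p = 0.137). Of the 4 substrates named here, DESeq2 called Tnc and limma-voom called 0. Ncan, a proteoglycan of neural tissue, was at 0.170, 1.17 and 0.0499 CPM in the KO libraries and 1.86, 1.68 and 2.71 CPM in the WT libraries and did not pass (log2 fold change -2.12, SE 0.97, adjusted p = 0.175); it was called lower without KO replicate 2.

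Most members with lower means in KO had KO replicate 2 as their highest KO library, an order not shown to be particular to them. Of the 13 tested members with a negative log2 fold change, 0 passed, and 4 had an unadjusted p under 0.05 (Mmp15, Mmp16, Mmp17 and Adamts9). In either direction, 5919 of all 18621 genes tested had such a p. In 12 of the 13, KO replicate 2 was the highest KO library. The share of all genes of the same sign with this order was not counted. Leaving out KO replicate 2 brought the genes with an unadjusted edgeR p under 0.05 to 9832. DESeq2 without that library called 4642 of all genes lower. The glioma and neural markers had the same order, 575 CPM in KO replicate 2 against 69.5 and 48.9 CPM in KO replicates 1 and 3, and 7 of the 8 had every KO library below WT. In the 19 called members the order was reversed, with KO replicate 2 highest in 0 of them. The summed fibroblast markers, 7 of 8 of which were higher in KO, also had their lowest KO value in KO replicate 2. The part of cell makeup in either pattern was not tested.

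**Figure D5:**
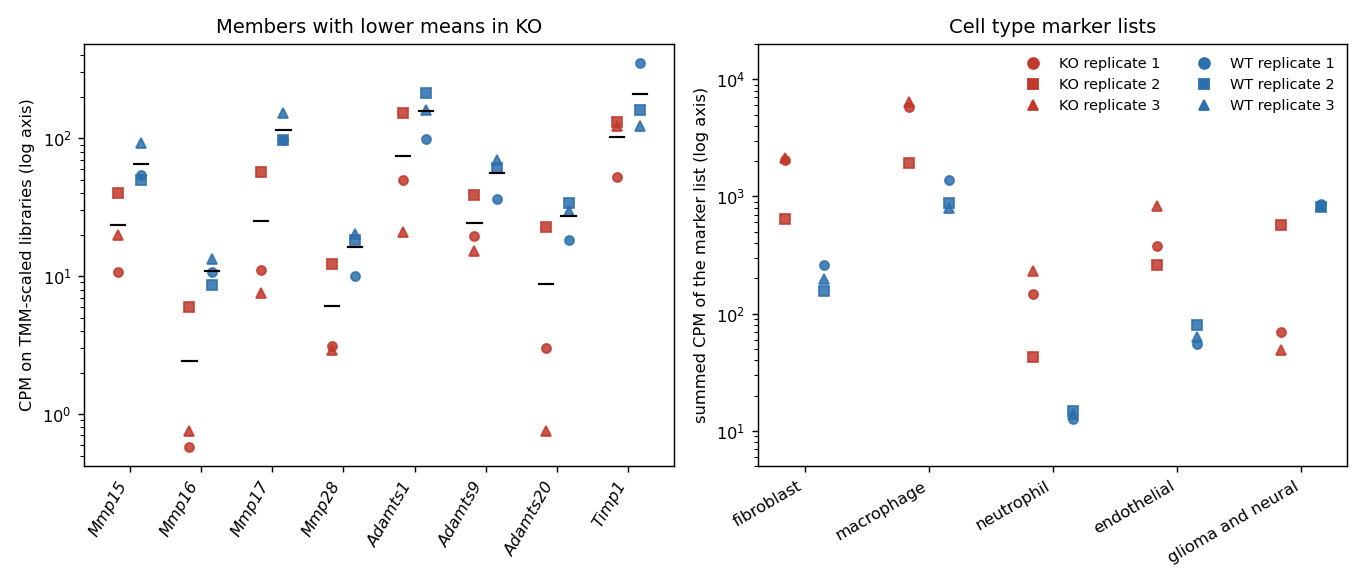
Left, CPM (log axis) of 8 members with lower means in KO; right, summed CPM (log axis) of 5 cell type marker lists; points are libraries, KO in red and WT in blue. KO replicate 2 (red squares) is the KO point nearest to WT in the glioma and neural list and is the highest KO point in all 8 genes on the left. The 8 were picked from the 13 tested members with a negative log2 fold change. Timp4, 1 of those not shown, has KO replicate 3 highest.

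A further 10 members were below the count filter. Mmp20, the enamel protease, had 0 counts in every library, and Mmp21, Mmp1a, Mmp7, Adamts8, Adamtsl3, Mmp1b, Adamts18, Adamts19 and Adamts3 had at most 14 counts in any library. Adamts18 had 7, 4 and 5 counts in the KO libraries and 0 in each WT library, and Adamts19 had 0 in each KO library and 4, 1 and 2 in the WT libraries. No fold is given at these counts.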

How the data were processed

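Unnormalized counts per gene symbol were taken from the authors' deposited table, which has 1 column per library and the merged exon lengths. The mm10 build and DESeq2 are named in the submitters' processing notes; for the aligner, annotation release and strand setting the sources used here give nothing. Groups came from the genotype labels, and replicates were numbered in accession order. No column was left out. Counts of all 55291 genes were filtered with filterByExpr (18621 kept), scaled by TMM and tested with edgeR 4.0.16 (glmQLFit, glmQLFTest, two-sided, R 4.3.3), with Benjamini-Hochberg adjustment over all genes tested and a threshold of 0.05; the procedure was tested on simulated data. The SE was approximated as the size of the log2 fold change over the root of F. CPM per kilobase divides by exon length and is used to compare genes. Totals were 24369359 to 40574093 counts. On the TMM-scaled sizes, 3 counts equal 0.0820 to 0.150 CPM, a floor that covers counting error only.

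The members and lists were chosen with earlier results of these data known. Named are all members that passed, the 2 most abundant per length of each role group, members at 0 throughout, and the 4 genes with the smallest p of each other list. Members named beyond this rule were chosen after their values were seen. Alternatives were RLE scaling, no composition scaling, no or a stricter count filter (above 1 CPM in 3 libraries), robust fitting, DESeq2 1.42.0, limma-voom (limma 3.58.1) with and without quality weights, and fits without 1 library or without KO replicate 2 and WT replicate 1. DESeq2 and limma-voom in the reduced fits were added after seeing the data. Promoter windows are from RefSeq (GRCm38.p6), and exon overlaps and coordinates from an mm10 annotation. Protein sequences were not used here.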

Additional observations from a re-analysis of the deposited data

How the results depend on the processing

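No member or other named gene that passed changed direction under any alternative. Without composition scaling 18 members were called and all genes lower numbered 24, and the median over all genes moved from -0.05 to -0.18. With no count filter 3 members and 476 of all genes were called lower. DESeq2 called 4 members, 1 other matrix gene and 1244 of all genes lower, and 3266 of all genes higher. With limma-voom 14 members were called, each among the 19, and 988 of all genes were higher. Quality weights gave 27 members higher and 10 lower, 35 other matrix genes higher and 11 lower, and 5531 of all genes higher and 4749 lower. Over the fits without 1 or 2 libraries, by edgeR, DESeq2 and limma-voom, members higher ranged from 0 to 24 and lower from 0 to 10. The other matrix genes ranged from 0 to 34 higher and 0 to 10 lower, and all genes from 0 to 4861 higher and 0 to 4642 lower. The cause of these shifts was not tested. The members' median exceeded that of all genes by 1.08 to 1.93 over all alternatives, against 1.25. Between 43 and 46 of the 46 tested members had the same sign as in the test reported, and only Timp3, Timp4, Adamts4 and Adamts16, none of which passed, changed sign in some fits. No paired analysis was possible because the labels give no replicate numbers that the groups share. Depth limits the members with under 15 counts in every library, for which no difference could be tested.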
